A study of Danio rerio with 6 samples.

Results

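GFP-positive cells sorted from embryos of a Flk reporter line were compared with whole zebrafish embryos at 18 hours post fertilisation (hpf). The comparison rests on 2 of the 6 arrays of a study of vascular development, 1 array a side, picked by the sample titles. The source label reads whole larvae on every array, those of sorted cells included. The titles and the study design therefore set the groups. The sorted cells came from the line the study design writes as Tg(Flk:GRCFP), in which the fluorescent protein follows a regulatory sequence named for Flk. The control was total RNA of whole embryos with no line named, and the labels record no treatment of the fish before dissociation. The title of the Flk sample and the study design give 18 hpf, whereas its description gives 24 hpf. The stage is therefore in doubt. The whole-embryo array at 24 hpf is set beside the main control for some of the genes below, and 2-fold calls given without it need not hold against that array. The remaining arrays held sorted cells of Tg(Fli1:EGFP) embryos at 18, 24 and 28 hpf. Per the labels, all RNA was amplified in 2 rounds before Cy3 labelling. The labels do not say how many embryos were pooled, how many cells were sorted or whether the whole embryos were dissociated, and the extraction protocol names the Fli1 line alone.

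Flk is the older name of a receptor for vascular endothelial growth factor (VEGF), and its zebrafish gene is now called kdrl. The receptor is made by angioblasts, the mesodermal precursors of endothelium, and by the endothelial cells that line the first vessels. In the embryo these cells arise from lateral mesoderm beside the precursors of blood, share regulators such as tal1 and lmo2 with them, and carry the first red cells once the circulation begins. A whole embryo of this age consists mostly of other tissue: epidermis, muscle, nervous system and the layer that surrounds the yolk.

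Spots of 13999 zebrafish probes were used. A probe was taken as above background on an array where it exceeded the 95th percentile of 173 Arabidopsis control spots, which gave a control limit of 7.98 on the Flk array and 8.11 on the whole-embryo array (log2 normalized signal, the scale of all levels below). By this limit 42.6% of probes were above background on the Flk array and 37.5% on the whole-embryo array. After subtraction of the background the 99th percentile was 9289 intensity units for Flk cells and 26836 for whole embryos, and 3 and 50 spots were saturated. With 1 array a side there is no replicate error and no test. The control spots show the scatter of dim spots alone, and not the error of sorting, amplification or saturation at higher signal. Their log2 difference had an SD of 0.36 and ran from -1.23 to 1.52, with 3 of 173 (1.73%) beyond 2-fold. The 544 empty spots were wider, with an SD of 0.59, a range from -2.77 to 4.92 and 9.19% beyond 2-fold. Rescanning the same 2 arrays at the lower or higher setting changed the log2 difference of a gene with an SD of 0.21 or 0.25.

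Of 10643 genes and unnamed probes, 5303 were above the control limit on at least 1 of the 2 arrays, and 2906 of these were named genes. In Flk cells 413 (7.79%) were at least 2-fold higher and 403 (7.6%) at least 2-fold lower than in whole embryos, 15.4% in all. Counts of each gene list below are to be set beside these shares, and a count near them sets no list apart. The median log2 difference of all genes compared was 0.05, with quartiles of -0.41 and 0.44. The tails were long: at 4-fold or more 77 genes were higher and 68 lower, and 6 and 9 passed 16-fold. Beyond the widest Arabidopsis spot, in size, lay 173 higher and 133 lower genes, but that spot sets no noise limit for brighter genes. The dimmer array was below the control limit for 191 of the higher and 162 of the lower genes, and 11 lower genes were saturated in whole embryos. For such genes only a bound on the fold can be given, written as at least, with the weakest signal above the limit standing in for a dim value under it, and this bound can be smaller than 2. Saturated spots differ only by their background, which sets their normalized level. A bound that rests on a saturated spot therefore holds for the main scaling alone. Counting these bounds, 287 higher and 311 lower genes kept a fold of 2 or more.

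**Figure D1:**
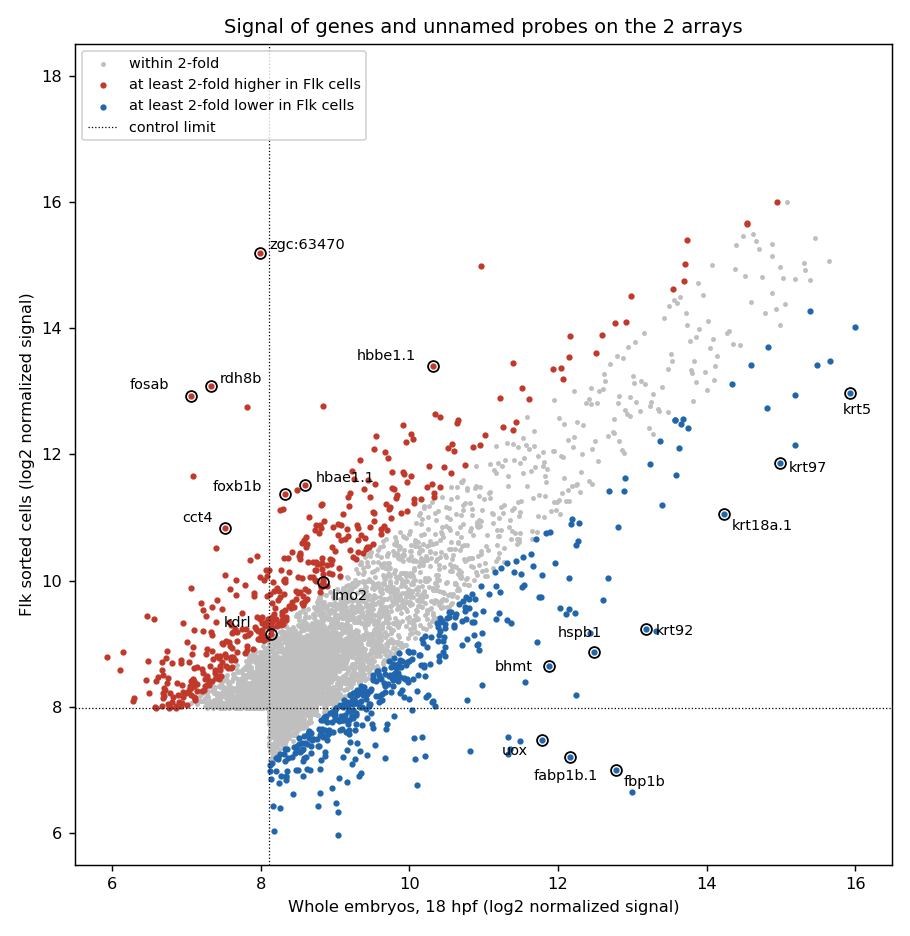
Log2 normalized signal of 5303 genes and unnamed probes in whole embryos at 18 hpf (x axis) and in Flk sorted cells (y axis), 1 array each. Red points are the 413 genes at least 2-fold higher and blue points the 403 at least 2-fold lower in Flk cells, dotted lines are the control limits of 8.11 and 7.98, and circled genes are named in the text. Keratins and genes of yolk, liver and gut are among the points farthest below the diagonal, and zgc:63470, fosab and rdh8b lie farthest above it.

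The split between higher and lower genes depended on the scaling. Higher genes made up 50.6% of those past 2-fold after quantile normalization, 37.6% after scaling to the 75th percentile and 34.5% in the authors' scaled values. Both of the latter scalings keep the brighter top of the whole-embryo array. In the authors' scaled values 858 of 5248 genes (16.3%) were 2-fold lower and 451 (8.59%) higher, and 401 of the 403 lower and 344 of the 413 higher genes passed 2-fold there as well. Some genes given below as higher were within 2-fold in those values (log2). Among them were cdc42ep4a (0.38), psmc6 (0.31), ldb3b (0.40), h3f3a (0.53), rpsa (0.48) and rps2 (0.37). So were rps26 (0.057), actc1b (0.76), sox9b (0.71), hspa8 (0.93) and prpf8 (0.97), and their calls depend on the scaling too.

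kdrl, the gene that the reporter is named for, had a level of 9.16 in Flk cells and 8.13 in whole embryos, the latter just above the control limit. It was 2.04-fold higher in Flk cells by this probe, and the authors' deposited table gives a ratio of 2.14. The other 3 kdrl probes were below the limit on both arrays, and with the mean over all its probes the log2 difference of kdrl was 0.07. kdrl thus sat at the edge of the 2-fold line: it was 0.75 at the lower scan setting and 0.88 with each block of the array centred (log2). In Fli1 cells of 18, 24 and 28 hpf the same probe read 9.04, 8.76 and 9.28, so the level in Flk cells lay within that range. fli1, an ETS transcription factor of the same lineage, read 8.12 in Flk cells and 7.92 in whole embryos, and no fold above 1.01 can be bounded for it.

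The endothelial and angioblast list had 35 genes, of which 12 had a named probe and 8 were above the limit on either array. Of these 8 genes 2 were at least 2-fold higher in Flk cells (kdrl and lmo2), 0 were lower, and the median log2 difference was 0.56 against 0.05 for all genes compared. lmo2, a LIM-domain partner of tal1 in blood and endothelial precursors, read 9.98 in Flk cells and 8.84 in whole embryos, 2.21-fold higher, and its other probe gave a log2 difference of 1.03. Both lmo2 probes were thus higher in Flk cells by a similar amount. tal1, the basic helix-loop-helix partner of lmo2, read 9.96 against 9.65, within 2-fold, while its other probe differed by -0.92 and the mean of both was -0.31. tek, the angiopoietin receptor, read 8.80 against 7.99, at least 1.62-fold higher, and the homeobox gene hhex read 8.85 against 7.89, at least 1.67-fold higher. For tek and hhex the whole-embryo side was below the limit, so their log2 differences of 0.81 and 0.96 have only a bound as a fold. ets1, another ETS factor, and the brightest probe of the Src-family kinase yes1 were above the limit in whole embryos alone, at log2 differences of -0.30 and -0.66. The other yes1 probe was above the limit in Flk cells alone and differed by 0.02. The VEGF receptor genes flt1 and flt4, the ETS gene erg and the apelin receptor aplnrb were below the limit on both arrays. Summed over the 8 genes the normalized signal was 4244 in Flk cells and 2954 in whole embryos, on a linear scale. In bulk RNA a higher share of cells of a type and more RNA per cell of that type cannot be told apart.

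Genes of red cells had the highest median of the 26 lists. Of 17 erythroid genes with a named probe 13 were compared, 7 were at least 2-fold higher in Flk cells, 1 was lower, and the median log2 difference was 1.58. The embryonic beta globin hbbe1.1 read 13.40 in Flk cells and 10.31 in whole embryos, 8.52-fold higher. The embryonic alpha globin hbae1.1 read 11.51 against 8.60, 7.55-fold higher, and the other alpha globin, hbae3, read 11.21 against 8.83, 5.20-fold higher. Globin genes of a cluster are near copies of each other, so their probes may share signal. The other hbae3 probe was also higher, by 1.83 (log2).

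Of the genes of heme synthesis and early blood regulators, alas2, urod, drl and klf17 were at least 2-fold higher. alas2, the first enzyme of heme synthesis in red cells, read 10.09 in Flk cells and 7.52, below the limit, in whole embryos, at least 3.96-fold higher. urod, a later enzyme of the pathway, read 10.65 against 8.58, 4.2-fold higher, while alad (1.82-fold) and fech (at least 1.21-fold) were within 2-fold. drl, a zinc finger gene of lateral mesoderm and early blood, read 10.32 against 7.85, at least 4.64-fold higher. klf17, a Kruppel-like factor of early red cells and the hatching gland, read 10.53 against 8.96, 2.99-fold higher, and its other probe differed by 0.18 (log2). gata1a, the GATA factor that drives red cell genes, read 8.35 against 8.14, a 1.16-fold difference near the limit on both arrays. The water channel gene aqp1a.1 (log2 difference -0.44) and the heme synthesis gene hmbsa (0.09) were within 2-fold as well. tmod4, a tropomodulin that caps actin filaments and is also a muscle gene, was the 1 lower member, at 6.61 in Flk cells and 8.43 in whole embryos, at least 1.37-fold lower. sptb, cahz, klf1 and blvrb were below the limit on both arrays.

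The direction of the globins and of alas2 turned or shrank with the stage of the control. In whole embryos at 24 hpf hbbe1.1 read 15.07 (saturated), hbae1.1 12.75 and hbae3 12.17, each above its level in Flk cells. Against that array hbbe1.1 was at least 3.18-fold lower in Flk cells, hbae1.1 was 2.36-fold lower and hbae3 1.95-fold lower. alas2 read 9.70 and was 1.31-fold higher in Flk cells, and drl read 9.21 and was 2.16-fold higher. klf17 read 8.39 and was 4.42-fold higher, so that klf17 and drl were at least 2-fold higher in Flk cells against either whole-embryo array. Over the same 13 genes the median log2 difference was 0.09 against the 24 hpf array, beside 1.58 against the 18 hpf array. Both comparisons share the Flk array.

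Of 11 myeloid and blood progenitor genes compared, 2 were at least 2-fold higher in Flk cells, 0 were lower, and the median log2 difference was 0.37. lyz, which encodes lysozyme, read 9.86 in Flk cells and 7.58, below the limit, in whole embryos, at least 3.37-fold higher. At 24 hpf whole embryos read 11.53 for lyz, so that Flk cells were 3.17-fold lower there. mfap4.1, a gene used as a macrophage marker in zebrafish, read 10.38 against 9.24, 2.21-fold higher, and 10.33 in whole embryos at 24 hpf, a log2 difference of 0.05. The other myeloid genes were within 2-fold: spi1b, the PU.1 transcription factor, at 0.66 (log2), the granulocyte peroxidase mpx at 0.54, the actin-bundling gene lcp1 at 0.37, gata2a at 0.37, the progenitor factor myb at 0.15, cebpb at 0.07, runx1 at -0.23, coro1a at -0.32 and nccrp1 at -0.47. runx1, needed for blood stem cells, read about 10 on both arrays, at 9.87 and 10.10. cebpa was below the limit on both arrays.

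Of 15 genes of VEGF, angiopoietin and Notch signalling 3 were at least 2-fold higher in Flk cells, 0 were lower, and the median log2 difference was 0.37. Besides kdrl these were mib1, the ubiquitin ligase that lets Notch ligands be taken up, at 9.37 against 8.34 (2.04-fold), and the hairy-related repressor her9, at 9.91 against 8.81 (2.14-fold). Against whole embryos at 24 hpf mib1 stood at 1.08 and her9 at 0.96 (log2), the latter within 2-fold. All 5 compared genes of artery and vein identity were within 2-fold, from -0.71 to 0.80.

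**Figure D2:**
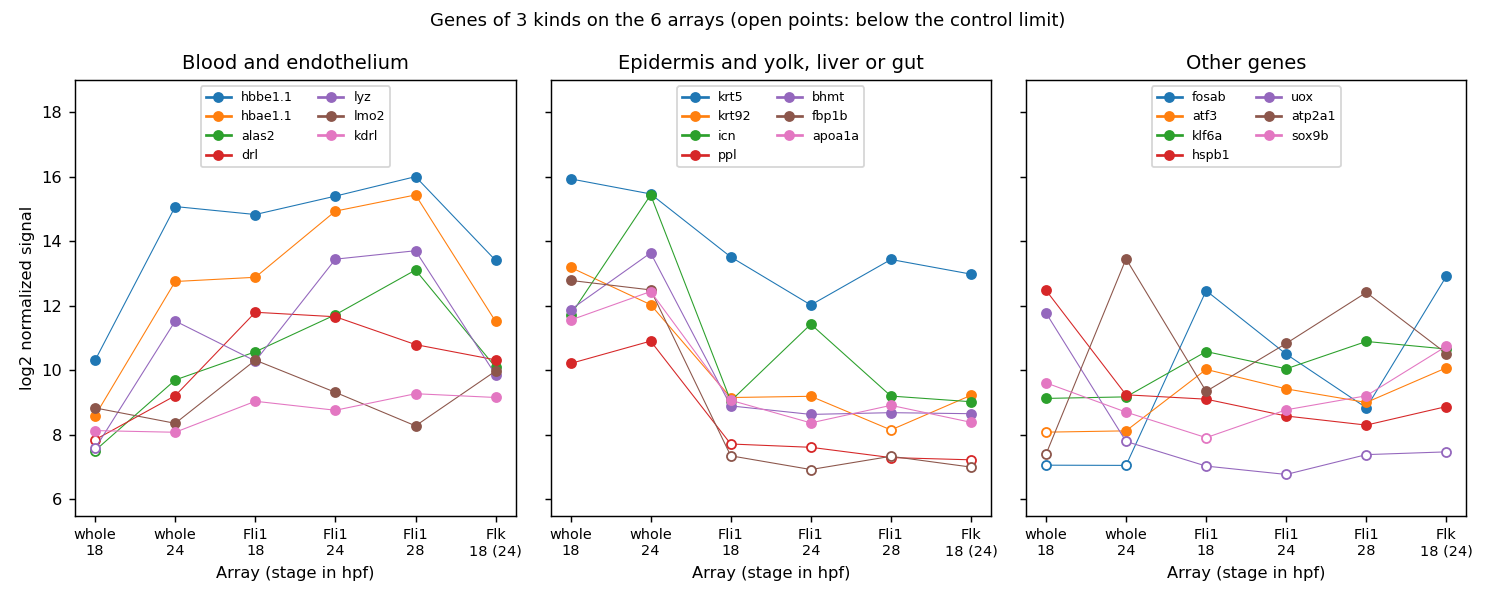
Log2 normalized signal (y axis) of 21 genes on the 6 arrays (x axis, stage in hpf, with the description's 24 hpf in brackets for Flk). Filled points are above and open points below the control limit of their array, and thin lines only join the points of a gene. hbbe1.1, hbae1.1, lyz and atp2a1 lie above the 18 hpf whole embryos and below the 24 hpf whole embryos in Flk cells, whereas krt5, krt92, fbp1b, bhmt and apoa1a are higher on both whole-embryo arrays than on any sorted array.

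Genes of the skin had the lowest median of the 26 lists. Of 22 epidermis and periderm genes with a named probe 19 were compared, 8 were at least 2-fold lower in Flk cells, 2 were higher, and the median log2 difference was -0.74. Over all genes compared 7.6% were lower and 7.79% higher. The summed normalized signal of the 19 skin genes was 36203 in Flk cells and 154191 in whole embryos, on a linear scale. krt5 and krt97 were saturated in whole embryos. krt92 read 9.23 in Flk cells and 13.19 in whole embryos, 15.6-fold lower. krt5, a keratin of the surface layer, read 12.98 against 15.93, where the whole-embryo spot was saturated, and was at least 7.73-fold lower. At scan setting 45, where that spot was not saturated, the log2 difference of krt5 was -2.28, so the bound holds for the main scaling alone. The 4 other krt5 probes were lower as well, from -0.97 to -0.56 and so within 2-fold, and the mean over all 5 probes was -1.16.

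krt97 read 11.87 against 14.98 (saturated, at least 8.66-fold lower), and its other 3 probes were also at least 2-fold lower. krt18a.1 read 11.05 against 14.23, 9.07-fold lower. krt18a.1 had 12 other probes above the limit, 9 of them at least 2-fold lower and 1 slightly higher (0.56), so that its mean over all 19 probes was -1.19. ppl, which encodes the cell-junction protein periplakin, read 7.23 against 10.21, at least 4.71-fold lower. icn, an S100-type calcium-binding protein of skin, read 9.03 against 11.71, 6.43-fold lower, and the annexin anxa1a read 9.47 against 12.10, 6.19-fold lower. The other anxa1a probe above the limit differed by -0.92, and the mean over all 3 was -1.37. krt15 was lower by its brightest probe alone (at least 2.30-fold), and the other krt15 probe above the limit differed by 0.07 (log2).

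The 2 higher skin genes were dim in whole embryos. krt18b read 8.92 against 7.28, at least 1.76-fold higher, and the claudin cldni read 9.75 against 7.91, at least 3.12-fold higher. Both were below the limit in whole embryos at 18 hpf, and against whole embryos at 24 hpf their log2 differences were -0.97 and -1.37. tp63, the transcription factor of basal epidermal cells, differed by 0.25 (log2). The claudins cldnb (0.40), cldne (-0.99) and cldnf (0.85) and the desmoplakin gene dspa (0.60) were within 2-fold. The keratins krt4 (-0.74), cyt1 (-0.35), krt8 (0.48) and krt91 (0.61) were within 2-fold by their brightest probes, but other probes of each read lower. The other cyt1 probe differed by -2.64 and the other krt4 probe above the limit by -1.18. The 3 other krt8 probes above the limit lay between -1.11 and -0.32, and of 13 such krt91 probes, from -1.58 to 0.41, only 3 were higher, with means over all probes of -0.35 for krt8 and -0.41 for krt91. cdh1, agr2 and anxa1c were below the limit on both arrays. Against whole embryos at 24 hpf 11 of 19 epidermal genes were at least 2-fold lower and 0 were higher, beside 7.12% lower and 7.1% higher of 5321 genes compared there. On that array icn read 15.43, where the spot was saturated, and was at least 84.7-fold above its level in Flk cells. This bound holds for the main scaling alone. krt18a.1 read 11.33 there, a difference of only -0.28.

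Genes of yolk, liver and gut were spread widely. Of 22 compared 7 were at least 2-fold lower, 1 was higher, and the median log2 difference was -0.07, close to that of all genes. The lower members included the most negative differences of any list. fbp1b, an enzyme of gluconeogenesis, read 7.0, below the limit, in Flk cells and 12.78 in whole embryos, at least 28.0-fold lower, with a ratio of 0.00792 in the authors' deposited table. The other fbp1b probe was dim and differed by -0.61. The fatty acid binding protein fabp1b.1 read 7.21 against 12.16 (at least 18.1-fold lower), and fabp2, its relative of the gut, read 7.52 against 11.32 (at least 10.2-fold lower). apoa1a, the main apolipoprotein of high-density lipoprotein, read 8.39 against 11.56, 8.98-fold lower. bhmt, which methylates homocysteine, read 8.66 against 11.88, 9.32-fold lower, and its other 2 probes gave log2 differences of -3.03 and -4.35. serpina1l, an alpha-1-antitrypsin relative, read 8.15 against 10.23, 4.21-fold lower, with 3 other probes also at least 2-fold lower. All 6 of these genes were at least 4-fold lower against whole embryos at 24 hpf too, with log2 differences from -5.49 to -2.30. The higher gene was gata5, a GATA factor of endoderm and heart precursors, at 9.19 in Flk cells and 7.67, below the limit, in whole embryos (at least 2.11-fold).

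**Figure D3:**
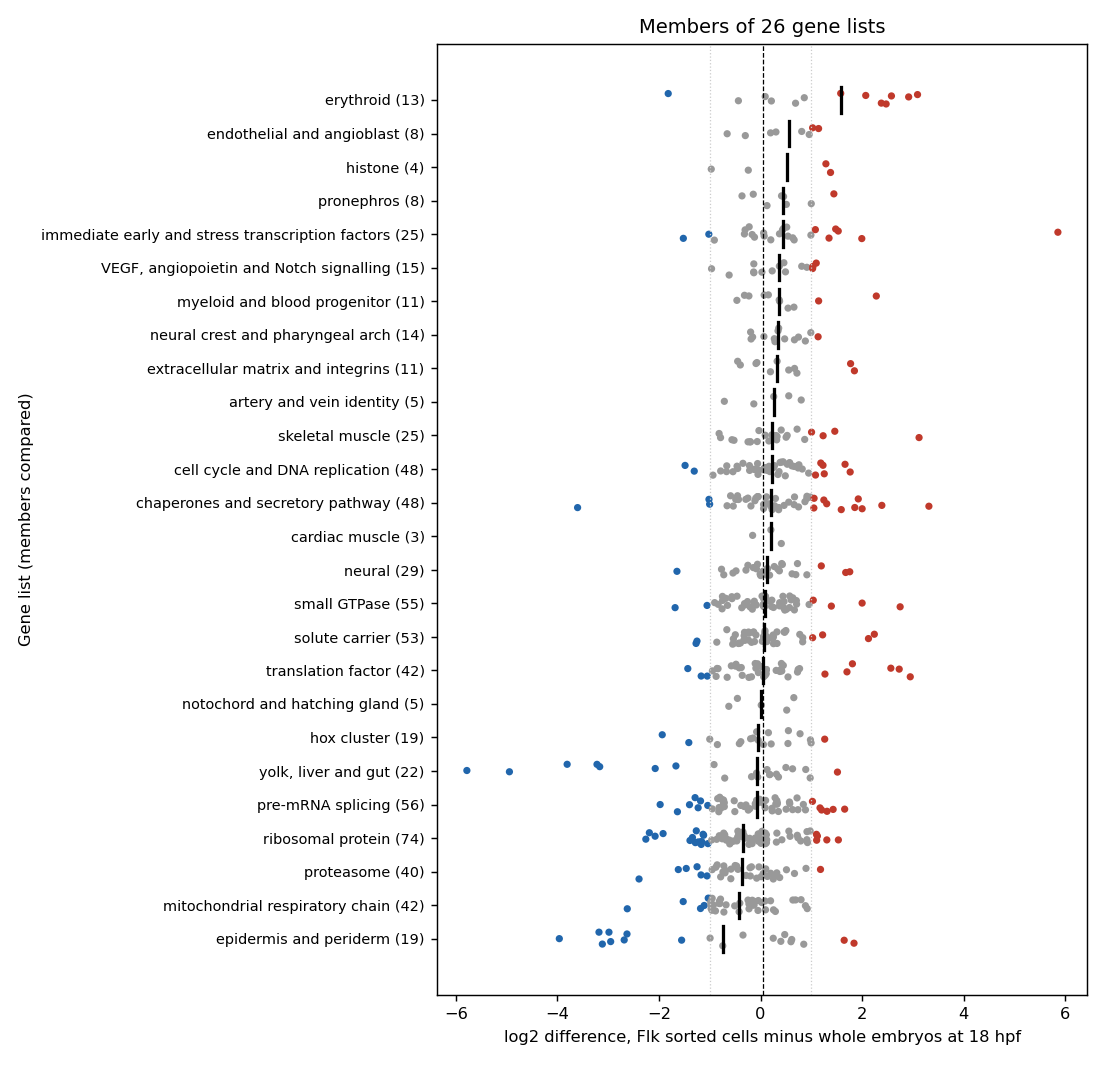
Log2 difference between Flk sorted cells and whole embryos at 18 hpf (x axis) of the compared members of 26 gene lists (y axis, members compared in brackets), ordered by median. Each point is a gene, red and blue at least 2-fold higher and lower, black bars are list medians and the dashed line is the median of all genes compared (0.05). The medians run from -0.74 for epidermis and periderm to 1.58 for erythroid genes, and the members of most lists lie on both sides of 0.

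Many cell types switch on immediate early genes within minutes of a stimulus. Of 25 immediate early and stress transcription factors and related genes compared, 6 were at least 2-fold higher in Flk cells, 2 were lower, and the median log2 difference was 0.43. Over all genes compared 7.79% were higher and 7.6% lower. fosab, a Fos subunit of the AP-1 factor, read 12.92 in Flk cells and 7.06, below the limit, in whole embryos, at least 28.0-fold higher, and the authors' deposited table gives a ratio of 83.9. The other fosab probe was higher by 3.18. fosab was also below the limit in whole embryos at 24 hpf, at 7.06, and read 12.47, 10.50 and 8.84 in Fli1 cells of 18, 24 and 28 hpf. It was thus above the limit on the 4 sorted arrays and below it on both whole-embryo arrays.

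atf3, a stress-induced partner of AP-1, read 10.08 against 8.08, at least 3.91-fold higher, and klf6a, a Kruppel-like factor, read 10.66 against 9.13, 2.89-fold higher. The growth arrest genes gadd45ab (9.23 against 7.75) and gadd45ba (8.80 against 7.46) and the Jun gene junbb (8.33 against 7.25) were below the limit in whole embryos, with bounds of 2.17-fold, 1.62-fold and 1.16-fold. These 5 genes stood at similar differences against whole embryos at 24 hpf, from 1.28 for junbb to 1.95 for atf3. btg1, an antiproliferative gene, was lower at 8.10 against 9.62 (2.87-fold) and higher than at 24 hpf by 0.80 (log2). socs3a, a feedback inhibitor of cytokine signalling, was lower at 7.99 against 9.01 (2.03-fold).

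Of 48 chaperones and secretory pathway genes 10 were at least 2-fold higher, 3 were lower, and the median was 0.21. Over all genes compared 7.79% were higher and 7.6% lower. In the endoplasmic reticulum the Hsp90 form hsp90b1 read 11.20 against 8.81 (5.24-fold), the lectin chaperone canx 10.53 against 8.61 (3.8-fold) and the Hsp70 form hspa5 12.50 against 10.64 (3.62-fold). The 2 other hsp90b1 probes above the limit differed by 0.42 and 1.72 (log2), and the mean over all 11 was 0.48. Of the 7 other hspa5 probes above the limit 5 were at least 2-fold higher and 1 was lower, at -0.97 (log2). In the cytosol hsp90ab1 read 11.18 against 9.18 (4.0-fold), with its other probes from -1.28 to 1.89, and hspa8 read 12.16 against 10.57 (3.01-fold). The higher hsp90ab1 probes were named by a shared description, and its accession-named probes above the limit differed by -1.28 and -0.11. The 3 other hspa8 probes above the limit lay between 0.41 and 1.35, with a mean over all 8 of 0.46. cct4, a subunit of the chaperonin that folds actin and tubulin, was at least 6.62-fold higher by its brightest probe, at 10.84 against 7.52. The 4 other cct4 probes above the limit lay between -0.51 and 0.69, and the mean over all 9 probes was 0.41. The brightest cct4 probe was named by a shared description and the others by accession. Probes of a symbol can target different stretches or close relatives, so genes with such disagreement are uncertain.

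hspb1, the small heat shock protein Hsp27, went the other way at 8.88 in Flk cells and 12.48 in whole embryos, 12.1-fold lower. Its level in whole embryos at 24 hpf was 9.24, only 1.29-fold above Flk cells, and the Fli1 arrays read between 8.30 and 9.11. The whole-embryo array at 18 hpf was therefore the 1 array of 6 with a high hspb1 signal. The coat protein gene cope (-1.0) and the translocon subunit sec61g (-1.02) made up the lower set.

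In skeletal muscle 4 of 25 genes were at least 2-fold higher in Flk cells, 0 were lower, and the median was 0.23. The calcium pump atp2a1 read 10.52 against 7.40, below the limit (at least 5.31-fold higher), and its 2 other probes above the limit differed by 1.77 and -0.32. Alpha-actin actc1b read 12.06 against 10.60 (2.76-fold), while its other probe differed by -0.86 and the mean of both was 0.30. The other higher members were the troponin tnnt3b, at 9.20 against 7.96 (at least 2.12-fold), and the Z-disc gene ldb3b, at 11.33 against 10.33 (2.01-fold). In whole embryos at 24 hpf atp2a1 read 13.45, actc1b 12.35 and tnnt3b 9.75, all above Flk cells. Against that array 13 of 29 muscle genes were at least 2-fold lower in Flk cells and 1 was higher, and the median over the 25 genes was -0.85. Of all 5321 genes compared there 7.12% were lower and 7.1% higher. Summed muscle signal was 21126 in Flk cells and 14591 in whole embryos at 18 hpf. The part of muscle RNA in the Flk sample was not tested. None of the 3 compared genes of the cardiac muscle list differed 2-fold (-0.16 to 0.41). cmlc1, which the files describe as a cardiac myosin light chain and which no list held, was at least 1.71-fold higher, at 8.89 against 6.74, below the limit.

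Counts of the other tissue lists stand beside 7.79% higher and 7.6% lower of all genes compared. Of 29 neural genes 3 were higher and 1 lower (median 0.13): the eye field gene rx3 read 8.83 against 7.08 (at least 1.65-fold), the zinc finger gene zic2b 10.72 against 9.04 (3.2-fold), the glial filament gfap 8.79 against 7.60 (at least 1.61-fold), and the retinoic acid binding gene crabp1a 7.71 against 9.35 (at least 2.60-fold lower). Of 14 genes of neural crest and pharyngeal arch 1 was higher, the SOX factor sox9b, at 10.75 against 9.61 (2.19-fold), and the median was 0.35. The crest genes foxd3 and sox10 were below the limit on both arrays. Of 8 pronephros genes the sodium pump subunit atp1a1a.1 was higher at 9.24 against 7.80 (at least 2.19-fold), with a list median of 0.43. Among 11 genes of extracellular matrix and integrins (median 0.33) the matrix glycoprotein sparc read 11.32 against 9.47 (3.60-fold) and the laminin lamb1a 8.70 against 6.93 (at least 1.5-fold). The 4 other sparc probes above the limit lay between -0.07 and 0.75. Against whole embryos at 24 hpf sparc stood at 1.28 and lamb1a at -0.031 (log2). The 5 compared genes of notochord and hatching gland were within 2-fold.

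Genes of protein synthesis and energy metabolism were measured at high signal, where the scaling matters most. Of 74 ribosomal protein genes 15 were at least 2-fold lower in Flk cells, 5 were higher, and the median was -0.34. The authors' scaled values gave a median of -1.18, 75th percentile scaling -1.01, the higher scan setting 0.06, and the whole-embryo array at 24 hpf -0.013. rps25 read 12.94 against 15.19, rplp0 13.47 against 15.66 and rps19 12.74 against 14.82, all saturated in whole embryos, with folds of at least 4.78, 4.56 and 4.22. At scan setting 45, where those spots were not saturated, their log2 differences were -1.81, -1.03 and -2.04, so the bounds hold for the main scaling alone. The other rplp0 probe differed by 0.03 and the other rps25 probe by -0.43. rpl36 (-1.92), rpl28 (-1.39) and rpl10 (-1.34) were lower without saturation. Their other probes above the limit ran from -0.90 to -0.51 for rpl36, -1.67 to 0.22 for rpl28 and -1.16 to -0.06 for rpl10. rpsa, which had 12 other probes above the limit, all higher, read 14.51 against 12.98 (2.89-fold). rps2 (1.31) and rps26 (1.1) were higher after quantile normalization. The 5 other rps2 probes ran from 0.05 to 1.41, and 1 of them passed 2-fold. rps9 and rpl35a are counted among the 5 higher genes at 1.12 and 1.1, but their whole-embryo spots were saturated, so these values give no direction. At scan setting 45 they differed by -0.46 and 0.18, and the authors' deposited table gives ratios of 0.455 and 0.508.

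Of 42 genes of the mitochondrial respiratory chain 6 were at least 2-fold lower, 0 were higher, and the median was -0.41. Against whole embryos at 24 hpf it was -0.43 over the same genes, and in the authors' scaled values against 18 hpf it was -1.06. The complex I subunit ndufb8 read 10.05 against 12.67 (6.16-fold lower), with its other probes at -0.39 and -1.44, and ndufa1 read 12.11 against 13.63 (2.87-fold lower). cox7a2l, ndufa6 and ndufb9 had log2 differences of -1.18, -1.03 and -1.01.

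Of 40 proteasome genes 6 were lower and 1 was higher (median -0.36, and -0.75 in the authors' scaled values). The activator subunit psme1 (at least 2.57-fold), the core subunits psmb1 (3.07-fold), psma2a (2.76-fold), psmb7 (2.25-fold) and psma6a (2.08-fold) and the regulatory subunit psmd3 (at least 1.47-fold) were the lower members. The ATPase psmc6 was 2.27-fold higher, and the 5 other psmc6 probes ran from -0.54 to 1.26. psmb7 was higher in Flk cells than in whole embryos at 24 hpf by 1.41 (log2), and over the 40 genes the median against that array was -0.035.

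Of 42 translation factors 6 were higher and 3 lower, with a median of 0.04. Over all genes compared 7.79% were higher and 7.6% lower. eif2b1, a subunit of the exchange factor for eIF2, read 11.44 against 8.49 (7.72-fold higher), eif4g2a 12.09 against 9.52 (5.92-fold) and eif3ha 11.73 against 9.92 (3.50-fold). Of the 6 other eif3ha probes above the limit all were higher and 5 passed 2-fold. eef2l2 (at least 1.70-fold), eif4a1b (at least 2.28-fold) and eif4bb (2.41-fold) were higher as well, but the other eef2l2 probe above the limit differed by -0.72. eef1b2 (-1.43), eif4h (-1.17) and eif2s1a (-1.05) were lower. Other eif2s1a probes above the limit differed by -0.06 and 0.59, and those of eef1b2 by -0.59 and -0.40. Those of eif4a1b lay between 0.07 and 0.40.

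Counts of splicing and cell cycle genes stand beside 7.79% higher and 7.6% lower of all genes compared. Of 56 splicing genes 6 were higher and 7 lower (median -0.07), with sf3b4 3.15-fold, sf1 2.69-fold and prpf8 2.03-fold higher, and snrpd3l 3.11-fold, lsm12b 2.64-fold and snrpd1 2.44-fold lower. hnrnpa1b read 14.02 in Flk cells and was saturated in whole embryos (at least 3.94-fold lower), but its log2 difference was -0.73 at scan setting 45, where the spot was not saturated. Other probes above the limit read 0.10 to 1.46 for prpf8, -3.07 and -0.22 for snrpd3l, -1.75 for snrpd1 and 0.06 for hnrnpa1b. Of 48 cell cycle and DNA replication genes 6 were higher and 2 lower (median 0.22), among them the cohesin and condensin subunits smc1al (at least 2.35-fold) and smc4 (2.39-fold), the replication protein rpa1 (3.17-fold) and the DNA methyltransferase dnmt1 (2.28-fold). The clamp loader rfc3 (2.80-fold) and the cyclin ccna1 (2.47-fold) were lower. Other probes above the limit were within 2-fold for smc1al (-0.43 and 0.74), smc4 (-0.03), dnmt1 (0.37), rfc3 (-0.16) and ccna1 (-0.21 to 0.35). For rpa1 such probes differed by 1.17 and -0.16 (log2). The H3.3 histone genes h3f3a (2.44-fold) and h3f3b.1 (2.60-fold) were 2 of 4 histone genes compared, and against whole embryos at 24 hpf they stood at 0.36 and -0.10 (log2). The other h3f3a probe differed by 1.19 and the other h3f3b.1 probe by -0.05.

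Of 19 hox genes 1 was higher, hoxc6b (at least 2.34-fold), and hoxc11a (3.83-fold) and hoxa1a (2.66-fold) were lower, with a median of -0.05. The other hoxa1a probe differed by 0.03, and against whole embryos at 24 hpf hoxa1a stood at -0.30 (log2). Of 53 solute carriers 4 were higher and 2 lower (median 0.06), led by the glucose-6-phosphate transporter slc37a4b at 12.19 against 9.95 (4.73-fold) and the bicarbonate transporter slc4a4b at 9.22 against 7.09 (at least 2.16-fold). Over all genes compared 7.79% were higher and 7.6% lower. Among 55 small GTPase genes 4 were higher and 2 lower (median 0.08). rnd3a read 12.30 against 9.55 (6.72-fold higher), with its other 2 probes below the limit, and the nuclear transport GTPase ran read 11.53 against 9.53 (4.0-fold). The 2 other ran probes differed by 0.32 and 0.55, and against whole embryos at 24 hpf ran stood at 0.32 (log2). cdc42ep4a, which the list took by its name and which encodes an effector of Cdc42, was 2.63-fold higher. In the authors' scaled values its log2 difference was 0.38, within 2-fold. cdc42l (3.21-fold) and rab10 (2.07-fold) were lower, and against whole embryos at 24 hpf they stood at -0.42 and 0.22 (log2).

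Some wide differences lay outside the lists. zgc:63470, a gene named only by its clone, read 15.19 in Flk cells and 7.99, below the limit, in whole embryos, at least 136-fold higher. In Fli1 cells of 28 hpf it read 8.34, just above the limit, and it was below the limit on the other arrays. rdh8b, a retinol dehydrogenase, read 13.08 against 7.33 (at least 31.3-fold higher) and was above the limit on the Flk array alone of the 6. Each had 1 probe. foxb1b, a forkhead factor of the neural tube, read 11.37 against 8.32 (8.26-fold higher). rpf2, which assembles the large ribosomal subunit, read 11.14 against 8.30 (7.15-fold higher), whereas its 2 other probes differed by 0.38 and 0.48. cdc73, a subunit of the Paf1 transcription complex, read 9.88 against 7.07 (at least 3.41-fold). serpinh1b, the collagen chaperone Hsp47, read 9.43 against 6.47 (at least 2.5-fold) and stood at -0.95 (log2) against whole embryos at 24 hpf.

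On the lower side uox, which encodes urate oxidase, read 7.47 in Flk cells and 11.78 in whole embryos, at least 13.9-fold lower. The other uox probe was below the limit on both arrays, and whole embryos at 24 hpf read 7.80, below the limit. ctsc, the protease cathepsin C, had the same pattern at 7.30, 10.81 and 7.95 in Flk cells and in whole embryos at 18 and 24 hpf (at least 7.15-fold lower than at 18 hpf). tuba8l2, an alpha tubulin, read 12.14 against 15.19, saturated (at least 8.28-fold lower), and 12.42 at 24 hpf. The other tuba8l2 probes above the limit differed by -1.22 and -0.25. gemin2, a subunit of the SMN complex, read 5.97 against 9.04, at least 2.09-fold lower by its 1 probe. Its Flk spot less background was 3, 7 and 6.5 at scan settings 45, 55 and 65, beside 286, 892 and 3032.5 in whole embryos. The Flk spot thus did not brighten from setting 55 to 65, so the low reading of gemin2 is uncertain. gabpa, an ETS factor, read 7.33 against 11.35, but its whole-embryo spot less background was 1397, 6846 and 481 at scan settings 45, 55 and 65. The spot was thus dimmer at the highest setting than at the lowest, and at setting 65 the log2 difference of gabpa was 0.29.

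Among unnamed probes 2 stood out in each direction. Probe obszebrafish#08970 read 12.75 in Flk cells and 7.81 in whole embryos (at least 24.96-fold higher), and obszebrafish#07912 read 11.66 against 7.09 (at least 11.7-fold higher). The Flk spot of obszebrafish#07912 was 1160.5, 3260 and 214 at settings 45, 55 and 65, with a log2 difference of -0.72 at the last. Probes obszebrafish#13955, at 6.65 against 12.99 (at least 32.3-fold lower), and obszebrafish#01341, at 9.20 against 13.32 (17.4-fold lower), were also lower against whole embryos at 24 hpf, with log2 differences of -5.62 and -3.29.

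Against whole embryos at 24 hpf, the stage in the sample description, 378 of 5321 genes were at least 2-fold higher in Flk cells (7.1%) and 379 lower (7.12%). Of the 413 genes higher against 18 hpf, 235 were also higher against 24 hpf, 168 were within 2-fold and 10 were lower. Of the 403 lower genes 143 were also lower, 259 were within 2-fold and 1, psmb7, was higher. The 10 that turned from higher to lower were hbbe1.1, hbae1.1, lyz, atp2a1, cldni and, named here after their values were seen, the cardiac myosin light chain cmlc1, the calcium channel cacna1c and 3 unnamed probes, 1 of them described as a skeletal muscle myosin. cmlc1 read 6.74 in whole embryos at 18 hpf, 8.89 in Flk cells and 11.46 in whole embryos at 24 hpf. Flk cells lay between the whole-embryo arrays for all 11 genes that turned, which the definition of turning fixes. The values do not tell the stage of the Flk cells.

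The difference between the arrays also changed with position on the slide. Genes in the first row of printed blocks had a median log2 difference of -0.36 and those in the last of 8 rows 0.34. In each of rows 1 to 4 more genes were at least 2-fold lower than higher (26 higher and 100 lower in row 1), and in each of rows 5 to 8 more were higher (107 higher and 25 lower in row 7). The control spots went from -0.16 in row 1 to 0.12 in row 8. Relative to the mean of the 6 arrays the whole-embryo array at 18 hpf changed most, from 0.27 in row 1 to -0.27 in row 8, and the Flk array from -0.12 to 0.06. With the median of each block taken off, 394 genes were higher and 324 lower, among them 327 of the 413 and 263 of the 403.

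**Figure D4:**
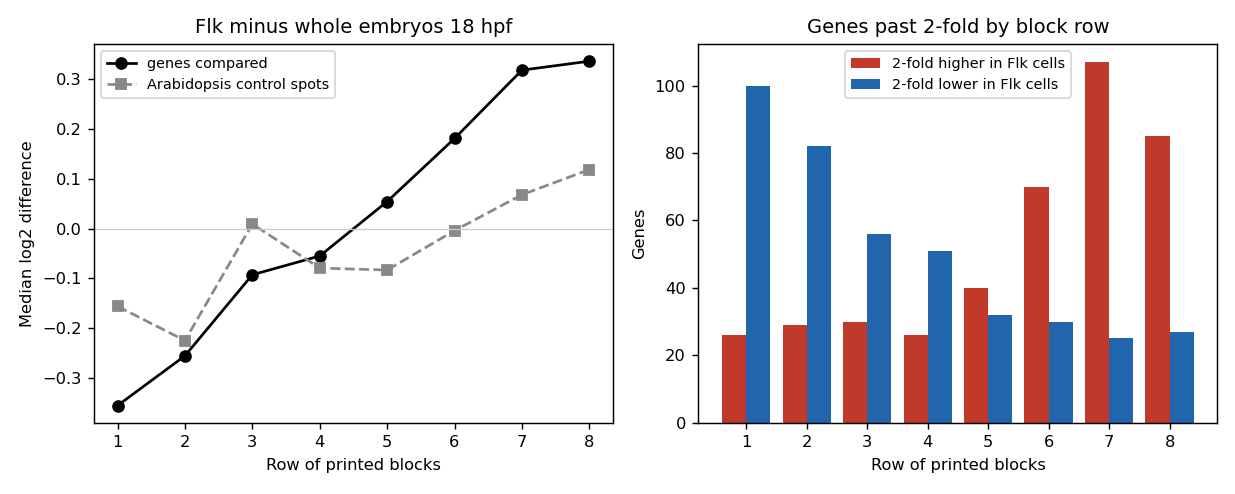
Left, median log2 difference between Flk cells and whole embryos at 18 hpf (y axis) by row of printed blocks on the array (x axis), for genes compared (circles) and Arabidopsis control spots (squares). Right, number of genes at least 2-fold higher (red) and lower (blue) in each row. The gene medians go from -0.36 in row 1 to 0.34 in row 8, with 100 lower genes in row 1 and 107 higher genes in row 7.

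Probes of the same gene gave a further check. For 59 higher named genes another probe was above the limit, and it had the same sign in 47 (79.7%) and passed 2-fold in 22. For 63 lower genes these numbers were 49 (77.8%) and 19. lmo2, hbae3, fosab, bhmt, krt97 and serpina1l were among the genes whose other probes also passed 2-fold, and cct4, rpf2, atp2a1, actc1b, eef2l2 and krt15 among those with other probes that did not follow the brightest.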

How the data were processed

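Per the labels, RNA was amplified with the AmpTec ExpressArt Nano kit and hybridised to single-colour arrays. The deposited scanner files give spot and background intensity at scan settings 45, 55 and 65 and a flag score whose codes are not explained, per the file headers. Intensities deposited by the authors were also joined over settings and divided by 1 number per array, in a linear value table that lists 0 where nothing was detected, and the ratio of these values between arrays. A further 18 columns of single arrays there were not used. Scanner and software are not given in the sources used here.

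Setting 55 was corrected with normexp (offset 50) and quantile normalized over 6 arrays in limma 3.58.1 under R 4.3.3, leaving out 68 flagged probes of 14067 and keeping saturated spots. Of these probes 8418 were named through RefSeq accessions, clone names or descriptions (5044 symbols, assembly GRCz12tu, used for names only). A gene is its brightest probe over all arrays. No test was possible with 1 array a side. Members, gene lists (26) and the reading of descriptions were chosen with earlier results of these data known. Named genes are the 15 widest differences a direction that hold in the authors' values, up to 6 members a direction per list, all members of the endothelial, erythroid, myeloid and epidermal lists and up to 2 unnamed probes a direction. The calling step was tested on simulated data, with noise of the control spots and shifts well past 2-fold. That simulation therefore tells nothing of calls near the 2-fold line or of saturated spots. Other scalings, scan settings, limits, probe rules and the 24 hpf control were tried, and block centring was added after the data were seen. A named member of the respiratory chain list is not reported here.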

Additional observations from a re-analysis of the deposited data

Results flagged for a closer look

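sox9b, a SOX transcription factor of neural crest and other tissues, moved in opposite directions in the reporter lines titled 18 hpf. The description of the Flk sample gives 24 hpf. It read 10.75 in Flk cells and 7.91, below the control limit, in Fli1 cells, beside 9.61 in whole embryos. Against the same whole-embryo array its log2 difference was 1.13 in Flk cells and -1.70 in Fli1 cells. The latter is a bound of at least 2.08-fold lower. For Flk cells over whole embryos at 18 hpf the authors' deposited table gives a ratio of 1.64, within 2-fold. The opposite direction was not seen at 24 hpf, where Fli1 cells read 8.78 and whole embryos 8.71, both above the limit. Flk cells differed from those 24 hpf whole embryos by 2.04 (log2), and Fli1 cells of 28 hpf read 9.21. The gene has 1 probe and each side 1 array, and the difference between the lines was not tested.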

How the results depend on the processing

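With 1 array a side all values lack replicate error, the 2 rounds of amplification cannot be assessed, and dim genes carry bounds alone. No paired analysis was possible because each group has 1 array. The count of lower genes, 403, was 705 under 75th percentile scaling and 858 in the authors' scaled values. At scan setting 45 there were 274 higher and 253 lower genes, and 222 and 241 among genes above the limit on both arrays. Under the other settings and block centring these counts stayed within 1.5 times of 413 and 403. Lists with a median above that of all genes numbered 17 of 26 and, against whole embryos at 24 hpf, 10. Named genes changed sign as follows (log2). In the authors' scaled values rps9 was -1.14 and rpl35a -0.98, rps9 was -0.46 at setting 45 and -0.54 with joined intensities, and at setting 65 hnrnpa1b was 0.31, gabpa 0.29, rps2 -0.092 and obszebrafish#07912 -0.72. The whole-embryo spots of rps9 and rpl35a at setting 55 and of hnrnpa1b and rps2 at setting 65 were saturated, for rps2 on the Flk array too, so those signs cannot be read. Against whole embryos at 24 hpf, higher genes that turned were atp2a1 (-2.93), hbbe1.1 (-1.67), lyz (-1.67), cldni (-1.37), hbae1.1 (-1.24), krt18b (-0.97), hbae3 (-0.96), serpinh1b (-0.95), eif4a1b (-0.77), rps2 (-0.64), tnnt3b (-0.56), actc1b (-0.29), the cyclin ccng1 (-0.17), h3f3b.1 (-0.10), rx3 (-0.049) and lamb1a (-0.031). Lower genes that turned were psmb7 (1.41), btg1 (0.80), the copper transporter slc31a1 (0.57), eif2s1a (0.36), rab10 (0.22) and gabpa (0.20). The cause of each change was not tested.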
